A study of Homo sapiens with 96 samples.

Results

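The genes described here encode the collagens, the laminins and the integrins, which together form the fibres and sheets of the extracellular matrix and the receptors by which cells hold on to them. They were chosen by symbol alone: the rows of the count table whose name is COL, a number, A and a number, LAM with a chain letter and a number, or ITGA or ITGB with a number or letters. The pattern matched 86 symbols, of which 3 (ITGB1BP1, ITGB1BP2 and ITGB3BP) name proteins that bind an integrin and were left out. This left 83 genes of 44659 gene entries, namely 44 collagen, 12 laminin and 26 integrin genes and ITGBL1, which encodes a secreted integrin-like protein. The rule itself used no measured value, though it was set with earlier results of these data known.

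A collagen is a triple helix of alpha chains, each chain with its own gene. Fibrillar collagens assemble into fibres, FACIT collagens decorate those fibres, and type IV collagens form the network of basement membranes. A laminin is a cross-shaped trimer of an alpha, a beta and a gamma chain and is the other main polymer of basement membranes. Integrins are pairs of an alpha and a beta chain that span the plasma membrane, bind collagens, laminins or proteins with an RGD sequence such as fibronectin, and link them to the actin cytoskeleton. In melanoma, integrin beta-3 is known as a marker of the step from radial to invasive growth.

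The series holds 96 libraries, all from A375, an established line of human melanoma cells that depends on a mutated BRAF kinase. As this is 1 line, nothing here speaks for other melanomas. A pretreatment of 18 h was either DMSO alone or MAPKi, which is the BRAF inhibitor vemurafenib at 500 nM together with the MEK inhibitor cobimetinib at 500 nM. The cells then received DMSO (the vehicle arm), cycloheximide at 100 µg/ml to block translation (CHX), triptolide at 25 µM to block transcription (T), or cycloheximide followed 5 min later by triptolide (TCHX), and were harvested 0, 1, 3 or 5 h later. That made 32 groups of 3 libraries. Each harvest time was a separately prepared batch of plates, so a change between times cannot be told apart from a change between batches. Pretreatments, cycloheximide against vehicle and TCHX against T were compared within a time, whereas triptolide was compared with vehicle at 0 h. Nothing in the sources used here says whether the 3 libraries of a group came from separate cultures, and p-values then measure only the spread between these libraries. Cytoplasmic RNA was read by QuantSeq, which primes on the poly(A) tail and gives a read near the 3′ end of a transcript, so a read count needs no scaling by transcript length. Levels are given as CPM, counts scaled to a common library size, after TMM scaling unless stated otherwise.

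The shallowest library held 2381351 counts and the deepest 12520154, and the median depth was 7143396. All 9 melanocyte markers had counts in the vehicle arm, but not all at a level that speaks for the label of the line. With DMSO, S100B, MITF and SOX10 were the highest, while PMEL (1.15), TYR (0.54), TYRP1 (0.21) and MLANA (0.16 CPM at 0 h) were low. The sum of all 9 ran from 742.5 to 1102 CPM in the 12 DMSO vehicle libraries. It ran from 2243 to 3859 CPM in the 12 MAPKi vehicle libraries. In the same libraries the 7 fibroblast markers summed to 6.72 to 12.5 CPM with DMSO and to 23.9 to 36.8 CPM with MAPKi, with DCN, THY1 and COL3A1 at 0 counts in both, and FAP the highest of the list. The 4 endothelial, 4 keratinocyte and 5 leukocyte markers never summed to more than 3.10 CPM, and PECAM1, CDH5, KRT5, KRT1 and CD3E had no count in these 24 libraries. Most of the rise of the melanocyte sum was DCT, an enzyme of melanin synthesis, at 54.97 ± 7.95 CPM with DMSO and 2133 ± 523.4 CPM with MAPKi at 0 h, while S100B stood at 301.6 ± 13.2 and 214.8 ± 20.2 CPM. The melanocyte and fibroblast sums moved with MAPKi, the comparison with the most called genes below, and their part in those results was not tested.

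Of the 83 genes, 80 had at least 1 count in some library and 58 had at least 10 counts in some library. COL3A1, COL17A1 and COL23A1 had no count in any of the 96 libraries. After a filter on low counts (edgeR's filterByExpr over the 32 groups), 51 genes could be tested, namely 25 collagen, 9 laminin and 17 integrin genes. Among the genes that failed it, COL1A2, a chain of type I collagen, had 2 counts and COL5A1 had 14 counts summed over all 96 libraries. COL6A3, the third chain of type VI collagen, had 111 counts over all libraries. ITGA9 had 5 counts and ITGB6, the partner of ITGAV in epithelia, had 45 counts.

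In DMSO vehicle cells at 0 h the highest levels were those of integrins and basement membrane chains. ITGA6, an alpha chain of laminin receptors, stood at 470.3 ± 40.6 CPM (SD, n = 3, as for all levels at 0 h below). ITGB3 followed at 376.4 ± 42.7 CPM and ITGB5 at 345.4 ± 17.4 CPM, and these groups of 3 libraries overlapped (ITGB3 from 344.7 to 425.0 CPM, ITGB5 from 327.5 to 362.2 CPM). The laminin chains LAMB1 (239.1 ± 8.28 CPM) and LAMC1 (233.5 ± 40.7 CPM) and the type IV collagen chain COL4A2 (208.2 ± 10.2 CPM) came next. ITGB1, the beta chain shared by most integrins, stood at 99.7 ± 2.00 CPM. Of the collagens that do not form basement membrane networks, COL9A3 (127.7 ± 25.2 CPM), COL19A1 (89.1 ± 7.86 CPM) and COL27A1 (66.2 ± 5.99 CPM) were the highest.

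The first comparison asked how the matrix and adhesion genes stood after 18 h of MAPKi. In the vehicle arm at 0 h, MAPKi cells had more RNA of 16 of the 51 tested genes and less of 14 (adjusted p below 0.05 in edgeR's quasi-likelihood test, Benjamini-Hochberg adjustment over 14948 genes). Over all genes tested 21.9% were higher and 24.0% lower, beside 31.4% and 27.5% of these genes. The filter ran over all 32 groups, so a gene could pass it through the groups in which it was high. COL13A1, called lower, passed through DMSO groups, and COL24A1, called higher, had 6 counts in the DMSO libraries at 0 h. COL21A1, also among the 51, passed through triptolide groups. The shares are therefore not read as a result about these genes. In a bulk sample, a lower level from less RNA per cell and one from fewer cells with the RNA cannot be told apart. The median log2 change was 0.20 over the 51 genes and 0.03 over all genes. By family, 11 collagen genes rose and 5 fell of 25 tested, 3 laminin genes rose and 2 fell of 9, and 2 integrin genes rose and 7 fell of 17.

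**Figure D1:**
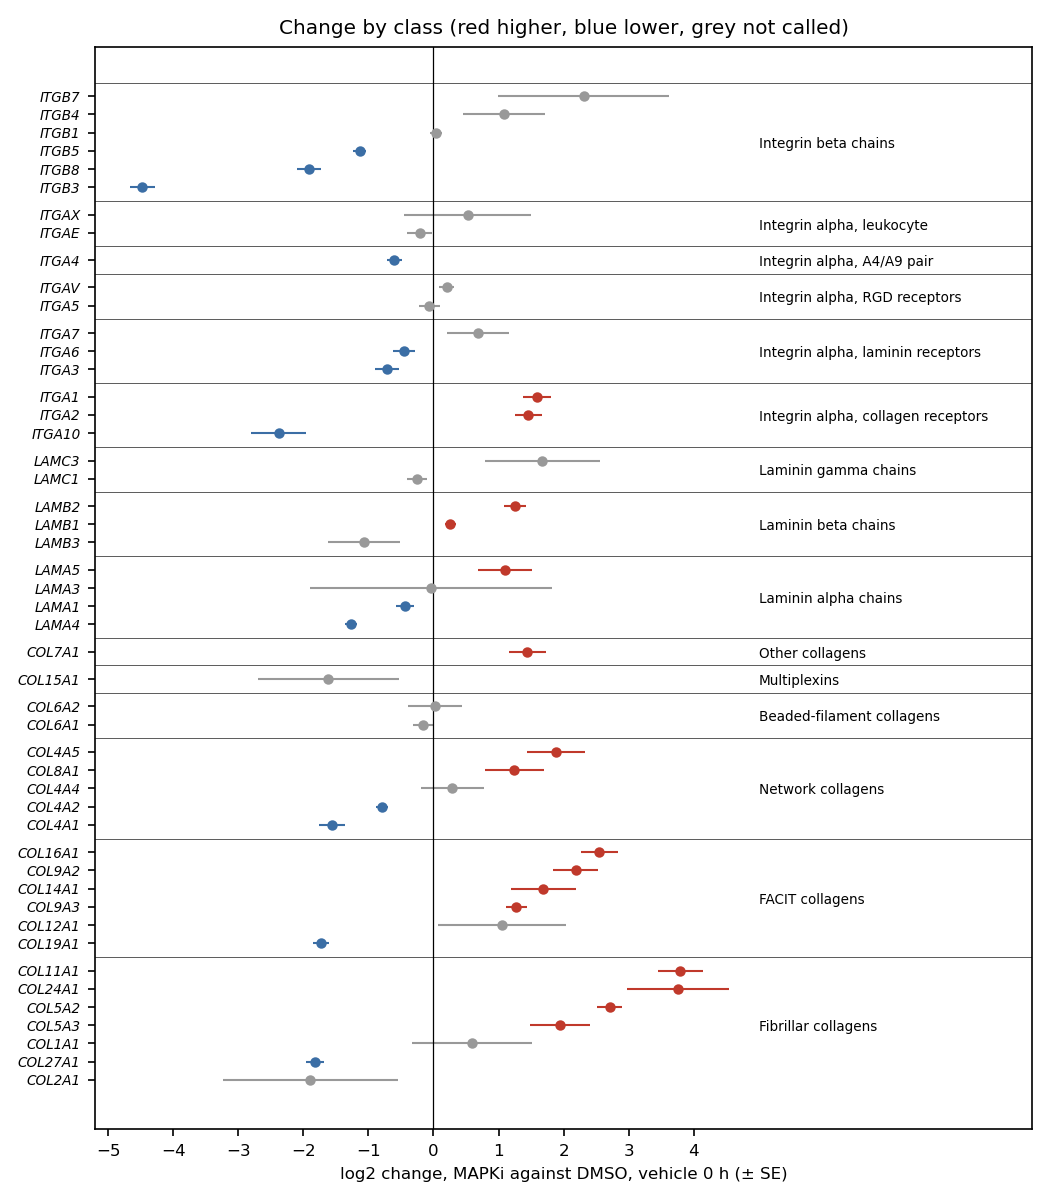
Log2 change in MAPKi against DMSO (vehicle, 0 h, 3 libraries a group) with its standard error on the horizontal axis, 1 row per tested gene, grouped by class, with genes called higher in red, called lower in blue and not called in grey. COL13A1, COL18A1 and COL21A1, which had 0 counts in all libraries of at least 1 of the groups, are left out. Most points of the fibrillar and FACIT collagens lie right of 0, and ITGB3 lies farthest left at -4.47.

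The fibrillar collagens held the largest rises. COL11A1, a chain of the minor fibrillar type XI that sets fibre width in cartilage, had 1.45, 2.19 and 2.33 CPM in the 3 DMSO libraries and 20.03, 42.2 and 24.5 CPM in the 3 MAPKi libraries. Every MAPKi library lay above every DMSO library, and the log2 change was 3.80 ± 0.35 (SE, as for all log2 changes; edgeR adjusted p = 1.28e-15). COL5A2, a chain of type V collagen, which starts fibres of type I, had 9.55, 14.7 and 16.4 CPM with DMSO and 100.6, 84.1 and 87.0 CPM with MAPKi. The groups again did not overlap, and the log2 change was 2.71 ± 0.19 (edgeR adjusted p = 1.23e-21).

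COL5A3, the third type V chain, had 1.25, 2.82 and 1.27 CPM with DMSO and 5.90, 9.67 and 5.12 CPM with MAPKi, a log2 change of 1.94 ± 0.46 without overlap (edgeR adjusted p = 0.000296). COL24A1, a fibrillar collagen of bone and cornea, had 6 counts in the 3 DMSO libraries together and 84 in the 3 MAPKi libraries, a ratio of 14.2 with a 95% interval of 6.28 to 39.9 that covers counting error only. Its level with MAPKi was 4.15 ± 0.21 CPM. COL27A1 was the fibrillar gene that went the other way. It had 69.3, 70.0 and 59.3 CPM with DMSO and 20.03, 18.4 and 17.5 CPM with MAPKi, a log2 change of -1.82 ± 0.14 (edgeR adjusted p = 6.31e-19). COL1A1, the main chain of type I collagen, stood at 0.71 ± 0.60 and 1.07 ± 0.62 CPM and did not pass the test at 0 h (edgeR adjusted p = 0.637).

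Among the FACIT collagens, 4 rose and 1 fell of 7 tested. COL16A1, which is found at the ends of fibrils and near basement membranes, had 5.40, 5.95 and 9.32 CPM with DMSO and 54.5, 32.2 and 38.3 CPM with MAPKi. All MAPKi libraries were higher than all DMSO libraries, at a log2 change of 2.55 ± 0.29 (edgeR adjusted p = 4.57e-12). COL9A2 and COL9A3 encode 2 of the 3 chains of type IX collagen, and both rose. COL9A2 had 2.70, 2.82 and 1.59 CPM with DMSO and 11.8, 9.13 and 10.4 CPM with MAPKi, a log2 change of 2.18 ± 0.34 (edgeR adjusted p = 9.8e-08). COL9A3 went from 127.7 ± 25.2 to 309.9 ± 16.5 CPM, a log2 change of 1.27 ± 0.16 (edgeR adjusted p = 9.07e-11). The third chain, COL9A1, had 173 counts over all 96 libraries and failed the filter.

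COL14A1 was called at a log2 change of 1.69 ± 0.50 (edgeR adjusted p = 0.00378), but its highest DMSO library (3.94 CPM) lay above its lowest MAPKi library (3.71 CPM). COL19A1 fell. It had 80.5, 96 and 90.7 CPM with DMSO and 23.5, 28.3 and 29.0 CPM with MAPKi, a log2 change of -1.73 ± 0.13 (edgeR adjusted p = 8.51e-20). Exons of COL19A1 overlap those of LMBRD1 on the other strand, and whether the counting used strand is not stated. LMBRD1 itself went the other way, from 16.9 to 28.4 CPM. Likewise exons of COL9A3 overlap TCFL5 on the other strand, which went from 21.7 to 16.01 CPM while COL9A3 rose.

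**Figure D2:**
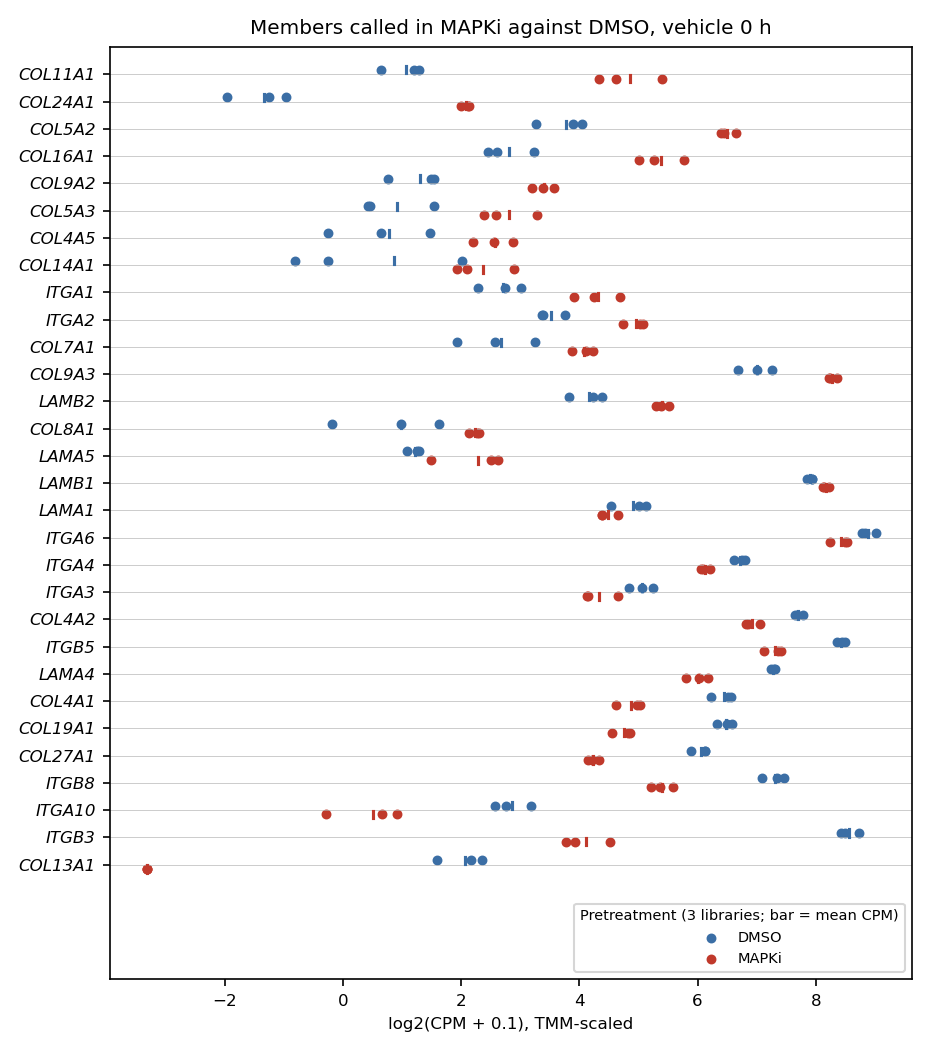
Level of each of the 30 called genes in every vehicle library at 0 h, as log2(CPM + 0.1) on the horizontal axis, with DMSO in blue, MAPKi in red and a bar at the group mean. Genes are ordered by log2 change, with COL11A1 at the top and COL13A1, which has 0 counts in all 3 MAPKi libraries, at the bottom.

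Type IV collagen genes lie in head-to-head pairs, and the pair on chromosome 13 fell together. COL4A1 had 74.5, 94.6 and 90.9 CPM with DMSO and 32.4, 24.3 and 31.3 CPM with MAPKi, a log2 change of -1.56 ± 0.20 (edgeR adjusted p = 2.49e-10). COL4A2 had 204.2, 200.6 and 219.7 CPM with DMSO and 115.0, 113.1 and 133.6 CPM with MAPKi, a log2 change of -0.79 ± 0.09 (edgeR adjusted p = 2.35e-11). For both genes each MAPKi library lay below each DMSO library. COL4A5, from another pair on the X chromosome, rose. It had 1.45, 2.66 and 0.74 CPM with DMSO and 7.27, 4.48 and 5.80 CPM with MAPKi, a log2 change of 1.89 ± 0.45 (edgeR adjusted p = 0.000269). Its neighbour COL4A6 had 33 counts over all 96 libraries.

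The RefSeq table of promoter windows (GRCh38.p14, 250 bases before to 50 after each gene's start) held 59 of the 83 genes. The windows of COL4A1 and COL4A2 overlap, since the starts of both genes lie 127 bases apart on opposite strands. The shared stretch is at chr13:110307108-110307333 and is printed on the plus strand, the strand of COL4A2, because these neighbours fell together. The windows of COL11A1 (chr1:103108473-103108772, minus strand), of COL13A1 (chr10:69801656-69801955, plus strand) and of ITGA10 (chr1:145910001-145910300, minus strand) are printed on the strand of the gene. COL11A1 had the largest fitted rise, and COL13A1 had no count in the MAPKi vehicle libraries at 0 h. Capitals mark matches, on either strand, to CCAAT, to TATAAA, to the TEAD letters GGAATG and to the AP-1 letters TGANTCA.
COL4A1 and COL4A2 shared: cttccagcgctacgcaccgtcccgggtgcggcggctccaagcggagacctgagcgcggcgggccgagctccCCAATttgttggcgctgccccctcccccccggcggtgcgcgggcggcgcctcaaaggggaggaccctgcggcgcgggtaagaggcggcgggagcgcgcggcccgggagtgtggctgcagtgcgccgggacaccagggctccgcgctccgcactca
COL11A1: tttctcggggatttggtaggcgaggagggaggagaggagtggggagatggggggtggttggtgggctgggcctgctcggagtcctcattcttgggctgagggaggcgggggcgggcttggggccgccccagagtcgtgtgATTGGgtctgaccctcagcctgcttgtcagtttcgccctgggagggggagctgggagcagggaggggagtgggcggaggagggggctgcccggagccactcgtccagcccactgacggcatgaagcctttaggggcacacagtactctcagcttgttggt
COL13A1: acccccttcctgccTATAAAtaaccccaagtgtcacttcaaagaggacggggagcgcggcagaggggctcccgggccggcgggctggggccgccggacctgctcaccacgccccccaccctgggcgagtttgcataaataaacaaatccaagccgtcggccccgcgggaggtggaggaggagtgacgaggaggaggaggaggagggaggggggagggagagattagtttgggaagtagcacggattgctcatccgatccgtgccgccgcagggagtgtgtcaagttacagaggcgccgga
ITGA10: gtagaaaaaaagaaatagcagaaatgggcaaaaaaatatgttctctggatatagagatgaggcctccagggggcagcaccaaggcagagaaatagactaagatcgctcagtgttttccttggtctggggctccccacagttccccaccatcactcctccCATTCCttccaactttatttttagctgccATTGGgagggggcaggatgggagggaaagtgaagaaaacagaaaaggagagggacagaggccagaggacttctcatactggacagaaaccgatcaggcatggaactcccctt

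The shared COL4A1 and COL4A2 stretch, the COL11A1 window and the ITGA10 window each held CCAAT, the binding letters of NF-Y, and so did 34.6% of all 35116 windows of this length. Of the genes with a window, CCAAT was in 3 of 12 that were higher and 4 of 11 that were lower in MAPKi. The COL13A1 window held TATAAA, which was in 11.5% of all windows. GGAATG was in the ITGA10 window and in 14% of all windows. TGANTCA was in no window of the 23 called genes that have one and in 7.71% of all windows. It was in windows of ITGA5, LAMA3, LAMB3 and COL10A1. The 59 genes had 78 windows, and a gene counted if any of its windows held the letters. The percentages are shares of windows, so they are not the same measure as the gene counts. A match in such a window is a run of letters and not a measured binding site.

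The remaining collagens gave fewer calls. COL13A1, a transmembrane collagen of cell-matrix junctions, had 2.91, 4.39 and 4.98 CPM in the DMSO libraries and 0 counts in all 3 MAPKi libraries. Against a floor of 3 counts per library, it was at least 9.07-fold lower with MAPKi. Over all 4 vehicle times it had counts in each of the 12 DMSO libraries (364 in sum) and 2 counts in sum in the 12 MAPKi libraries. COL7A1, which forms the anchoring fibrils under the epidermis, rose from 6.30 ± 2.88 to 16.8 ± 2.14 CPM, a log2 change of 1.44 ± 0.28 (edgeR adjusted p = 1.58e-05). COL8A1, a short-chain network collagen of vessel walls, was called at a log2 change of 1.24 ± 0.46 (edgeR adjusted p = 0.0202). The type VI chains COL6A1 (35.6 ± 4.49 against 31.8 ± 6.15 CPM) and COL6A2 (3.11 ± 2.16 against 3.04 ± 1.03 CPM) did not pass the test at 0 h.

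The laminin chains moved in both directions. LAMA4, an alpha chain of the laminins of vessels and mesenchyme, had 151.1, 158.0 and 156.2 CPM with DMSO and 64.6, 56.0 and 72.1 CPM with MAPKi, a log2 change of -1.27 ± 0.10 without overlap (edgeR adjusted p = 3.48e-19). LAMB2 rose from 17.8 ± 3.44 to 42.2 ± 3.23 CPM, a log2 change of 1.26 ± 0.17 (edgeR adjusted p = 1.18e-09). LAMB1, the more abundant beta chain, rose by a smaller amount, from 239.1 ± 8.28 to 286.7 ± 11.5 CPM and 0.26 ± 0.08 on the log2 scale (edgeR adjusted p = 0.005). Its exons overlap those of DLD on the other strand, which went from 91.2 to 116.7 CPM. LAMA5 was called higher at 1.101 ± 0.42 (edgeR adjusted p = 0.0257) on a level of 4.76 ± 1.80 CPM, and it overlaps ADRM1 on the other strand, which fell from 305.7 to 155.0 CPM. LAMA1 was called lower at -0.43 ± 0.14 (edgeR adjusted p = 0.00811). LAMC1, the gamma chain of most laminins, stood at 233.5 ± 40.7 and 194.7 ± 17.2 CPM and was not called (edgeR adjusted p = 0.168).

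Among the integrins, ITGB3 had the largest fall of any gene here that kept counts in both groups. ITGB3 pairs with ITGAV into the receptor for vitronectin and fibronectin. It had 425.0, 359.6 and 344.7 CPM with DMSO and 13.6, 22.7 and 15.1 CPM with MAPKi, a log2 change of -4.47 ± 0.19, or 22.2-fold lower (edgeR adjusted p = 3.76e-34). ITGB8, another partner of ITGAV, had 136.1, 162.6 and 175.8 CPM with DMSO and 41.3, 37.1 and 47.9 CPM with MAPKi, a log2 change of -1.91 ± 0.19 (edgeR adjusted p = 1.22e-14). ITGB5, a further partner of ITGAV, fell from 345.4 ± 17.4 to 157.8 ± 16.2 CPM, a log2 change of -1.13 ± 0.10 (edgeR adjusted p = 1.69e-16). For these beta chains every MAPKi library lay below every DMSO library.

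ITGAV itself stood at 70.5 ± 11.6 and 81.5 ± 4.24 CPM and was not called at 0 h (log2 change 0.20 ± 0.12, edgeR adjusted p = 0.148). ITGB1 stood at 99.7 ± 2.00 and 102.6 ± 12.6 CPM, a log2 change of 0.04 ± 0.10 (edgeR adjusted p = 0.759). ITGA5, which pairs with ITGB1 into the main fibronectin receptor, stood at 49.3 ± 5.15 and 47.1 ± 4.51 CPM, a log2 change of -0.06 ± 0.16 (edgeR adjusted p = 0.788).

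The alpha chains of collagen receptors moved apart. ITGA1 rose from 6.44 ± 1.61 to 19.8 ± 5.43 CPM, a log2 change of 1.59 ± 0.22 (edgeR adjusted p = 2.86e-09), and ITGA2 rose from 11.3 ± 1.87 to 30.9 ± 3.78 CPM, a log2 change of 1.46 ± 0.21 (edgeR adjusted p = 6.45e-09). Exons annotated to ITGA1 overlap PELO on the same strand, which stood at 23.0 and 16.3 CPM and was not called. ITGA10, the collagen receptor chain of cartilage, had 5.81, 8.93 and 6.67 CPM with DMSO and 1.78, 0.72 and 1.48 CPM with MAPKi, a log2 change of -2.38 ± 0.42 without overlap (edgeR adjusted p = 1.78e-06). Of the laminin receptor chains, ITGA3 (-0.72 ± 0.19, edgeR adjusted p = 0.00104) and ITGA6 (-0.45 ± 0.18, edgeR adjusted p = 0.0272) fell, as did ITGA4 (-0.60 ± 0.11, edgeR adjusted p = 6.78e-06), a receptor chain for fibronectin and VCAM1.

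Leaving out the libraries of 1 replicate number at a time, 24 of the 30 genes stayed called throughout, and 6 did not. ITGA3 was lost without replicate 1 (adjusted p = 0.0773), ITGA6 without replicate 1 or 3 (0.0728 and 0.231), LAMA1 without 1 or 3 (0.236 and 0.171), LAMA5 without 1 or 2 (0.219 and 0.103), COL8A1 without 1 or 2 (0.111 and 0.126) and COL14A1 without 2 or 3 (0.267 and 0.08), all by edgeR.

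The other arms at 0 h gave libraries that this comparison had not used. In the CHX, T and TCHX arms at 0 h, all 30 called genes had a MAPKi mean on the same side of the DMSO mean as in the vehicle arm. The same count was not made over all called genes, so it is not particular to these genes. The 12 libraries of all arms at 0 h include those of the vehicle arm. Over them ITGB3 ran from 344.7 to 425.0 CPM with DMSO and from 13.6 to 27.8 CPM with MAPKi, and COL11A1 from 1.45 to 3.62 CPM with DMSO and from 20.03 to 42.2 CPM with MAPKi.

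Averaged over the 4 vehicle times (12 libraries a pretreatment), 22 of the 51 genes were higher and 18 lower in MAPKi, against 35.8% higher and 33.1% lower over all genes. As in the first comparison, a gene could pass the filter through the groups in which it was high. These counts are therefore not read against the shares of all genes. ITGB3 ran from 287.6 to 425.0 CPM with DMSO (median 346.6) and from 13.6 to 25.7 CPM with MAPKi (median 20.6), a log2 change of -4.14 ± 0.09 (edgeR adjusted p = 9.89e-54). COL5A2 ran from 8.999 to 16.4 CPM with DMSO (median 13.2) and from 76.8 to 117.1 CPM with MAPKi (median 97.9), a log2 change of 2.93 ± 0.10 (edgeR adjusted p = 1.02e-42). COL11A1 ran from 0.90 to 3.76 CPM (median 2.22) and from 15.2 to 42.2 CPM (median 29.6), a log2 change of 3.56 ± 0.17 (edgeR adjusted p = 1.49e-31). The ranges of these 3 genes did not overlap between pretreatments.

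With 12 libraries a side, several sparse genes were called too. The filter on low counts ran over all groups, so a sparse gene could pass it through the groups in which it was high. The test values of the sparse genes are therefore not read as a result, and their counts are given. COL1A1 had 24 counts over the 12 DMSO and 80 over the 12 MAPKi vehicle libraries (log2 change 1.85 ± 0.54, edgeR adjusted p = 0.00195). COL15A1, a basement membrane collagen, had 70 counts with DMSO and 12 with MAPKi (log2 change -2.93 ± 0.63, edgeR adjusted p = 3.34e-05). COL18A1, from which endostatin is cut, had 2 counts with DMSO and 35 with MAPKi, was at 0 in 11 of the 12 DMSO libraries, and lost its call without replicate 1 or 3 (edgeR adjusted p = 1 in both). ITGAV was called higher at 0.27 ± 0.06 (edgeR adjusted p = 3.97e-05).

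Genes that build, crosslink, cut or read the matrix were counted from lists, to be read against the 21.9% of all genes that were higher and the 24.0% that were lower. Of 24 tested genes of collagen processing, 5 were higher and 5 lower in MAPKi at 0 h, among them BMP1, which trims procollagen (1.66 ± 0.23, edgeR adjusted p = 5.09e-09), and LOXL4, a crosslinking lysyl oxidase (-3.45 ± 0.19, edgeR adjusted p = 2.58e-27). Of 14 tested matrix partners, 5 were higher and 3 lower. FBN1, the microfibril protein fibrillin-1, changed by 2.25 ± 0.80 (edgeR adjusted p = 0.0163). HSPG2, the heparan sulfate proteoglycan perlecan, rose by 1.74 ± 0.17 (edgeR adjusted p = 3.81e-14), and CCN2, a YAP target and matrix protein, fell by 1.28 ± 0.33 on the log2 scale (edgeR adjusted p = 0.000967).

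Of 22 tested integrin adaptors, 8 were higher and 6 lower. ACTN1, which links integrins to actin, changed by -2.39 ± 0.13 (edgeR adjusted p = 4.49e-28), FERMT1, a kindlin that activates integrins, by -2.36 ± 0.27 (edgeR adjusted p = 1.28e-11) and TNS3, a tensin, by 1.62 ± 0.27 (edgeR adjusted p = 3.65e-07). LIMS2, a partner of integrin-linked kinase, was among the 8 called higher, with 0 counts in all 3 DMSO libraries and 3, 7 and 7 counts in the MAPKi libraries. Of 12 tested matrix proteases and inhibitors, 4 were higher and 5 lower. TIMP3, an inhibitor of matrix metalloproteinases, changed by -2.16 ± 0.10 (edgeR adjusted p = 1.29e-30), TIMP2 by 1.47 ± 0.11 (edgeR adjusted p = 9.09e-21) and the gelatinase MMP2 by 1.81 ± 0.20 (edgeR adjusted p = 2.92e-12).

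Time in the vehicle arm moved few of the genes. Between 0 and 5 h, 0 of 51 genes were higher and 1 lower with DMSO (0.582% and 0.482% of all genes), and 2 were higher and 1 lower with MAPKi (1.26% and 2.07% of all genes). With DMSO, edgeR gave 2 higher and 5 lower at an unadjusted p under 0.05, and DESeq2 also called 0 higher and 1 lower. ITGB8 with DMSO had 136.1, 162.6 and 175.8 CPM at 0 h and 90.8, 80.4 and 128.3 CPM at 5 h (log2 change -0.66 ± 0.18, edgeR adjusted p = 0.0442). With MAPKi, ITGA2 had 32.4, 33.7 and 26.6 CPM at 0 h and 49.7, 54.9 and 47.7 CPM at 5 h (0.72 ± 0.19, edgeR adjusted p = 0.0143). ITGA1 had 18.9, 25.6 and 14.8 CPM at 0 h and 31.9, 34.4 and 26.4 CPM at 5 h (0.65 ± 0.20, edgeR adjusted p = 0.0442). LAMB1 had 279.0, 299.8 and 281.2 CPM at 0 h and 221.0, 254.4 and 209.6 CPM at 5 h (-0.33 ± 0.08, edgeR adjusted p = 0.00717). None of these calls held in every fit that left out a replicate number: without replicate 3 the adjusted p was 0.0568 for ITGB8, 0.153 for ITGA2, 0.336 for ITGA1 and 0.265 for LAMB1.

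The next comparison asked how blocking translation for 3 and 5 h changed the levels of these genes while transcription ran on. With DMSO pretreatment, cycloheximide raised 1 and lowered 12 of the 51 genes, against 18.3% higher and 13.5% lower over all genes. With MAPKi pretreatment it raised 2 and lowered 19, against 15.9% higher and 13.9% lower. Leaving out 1 replicate number at a time, 15 of the 21 calls with MAPKi and 6 of the 13 with DMSO were lost at least once, and these 3 fits gave 11 to 12 calls with MAPKi. The median log2 change was -0.14 with DMSO and -0.29 with MAPKi over the 51 genes, and 0.01 and -0.01 over all genes. Of the genes lower with MAPKi, 7 were collagen, 5 laminin and 7 integrin genes.

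LAMA1, the alpha chain of the first laminin of the embryo, fell in both. With DMSO it had 35.0, 30.96 and 35.1 CPM at 3 h and 41.7, 34.4 and 39.1 CPM at 5 h in vehicle, and 24.9, 28.5 and 25.9 CPM at 3 h and 20.5, 16.7 and 15.6 CPM at 5 h in cycloheximide (log2 change -0.74 ± 0.10, edgeR adjusted p = 2.66e-09). No cycloheximide library reached the lowest vehicle library. With MAPKi its log2 change was -0.58 ± 0.10 (edgeR adjusted p = 2.47e-06). ITGA2 had 8.999 to 14.98 CPM in the 6 vehicle libraries and 4.03 to 8.78 CPM in the 6 cycloheximide libraries with DMSO (-0.93 ± 0.16, edgeR adjusted p = 2.84e-06), and its change with MAPKi was -0.36 ± 0.13 (edgeR adjusted p = 0.0292, and 0.0696, 0.15 and 0.113 without replicate 1, 2 or 3).

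COL19A1 had 82.2 to 99.5 CPM in vehicle and 57.7 to 78.6 CPM in cycloheximide with DMSO (-0.39 ± 0.09, edgeR adjusted p = 0.000182), and 25.1 to 37.1 CPM against 16.5 to 26.2 CPM with MAPKi (-0.54 ± 0.09, edgeR adjusted p = 3.06e-06). COL4A2 fell by 0.42 ± 0.07 on the log2 scale with DMSO (edgeR adjusted p = 2.36e-07) and by 0.45 ± 0.07 with MAPKi (edgeR adjusted p = 5.47e-08). ITGB5 changed by -0.40 ± 0.07 with DMSO (edgeR adjusted p = 2.02e-06) and by -0.19 ± 0.07 with MAPKi (edgeR adjusted p = 0.0314), and ITGB3 by -0.37 ± 0.11 (edgeR adjusted p = 0.00494) and -0.43 ± 0.14 (edgeR adjusted p = 0.00984). With MAPKi, ITGB5 fell short of the threshold without replicate 2 (-0.09, adjusted p = 0.507) or 3 (adjusted p = 0.0643), and ITGB3 without replicate 2 (-0.26, adjusted p = 0.19). COL4A4 with DMSO (-1.30 ± 0.39, edgeR adjusted p = 0.00701) rested on levels between 0.28 and 3.63 CPM and lost its call without replicate 1 or 3 (adjusted p = 0.0825 and 0.127). LAMA5 with MAPKi (-0.77 ± 0.27, edgeR adjusted p = 0.0254) lost its call without any 1 of the 3 replicate numbers (adjusted p = 0.0749, 0.179 and 0.0799).

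**Figure D3:**
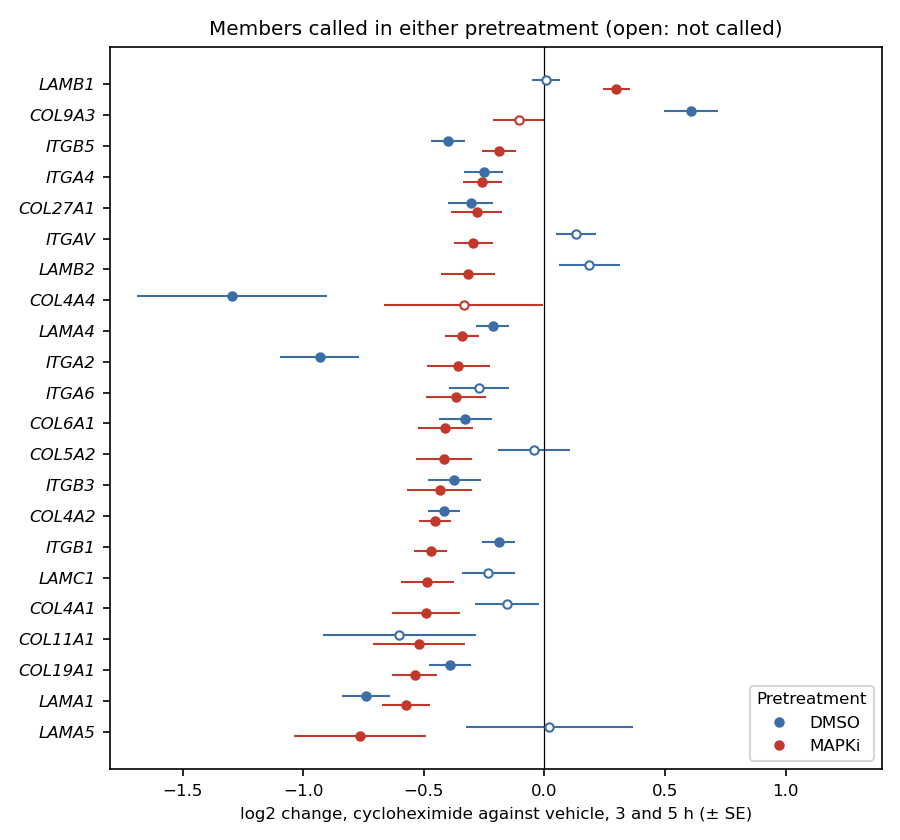
Log2 change in cycloheximide against vehicle over 3 and 5 h (6 libraries a side) with its standard error on the horizontal axis, for the genes called in either pretreatment apart from COL15A1. DMSO is blue and MAPKi red, and open points were not called. The called points right of 0 are COL9A3 with DMSO at 0.61 and LAMB1 with MAPKi at 0.30, and all other called points lie left of 0.

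The difference between both pretreatments in the cycloheximide change was tested as an interaction. It was higher in MAPKi for 2 and lower for 4 of the 51 genes, against 4.64% and 6.59% of all genes. COL9A3 rose with cycloheximide in DMSO cells, from 88.3 to 149.2 CPM in the 6 vehicle libraries to 152.3 to 255.3 CPM in the 6 cycloheximide libraries (0.61 ± 0.11, edgeR adjusted p = 6.16e-06). In MAPKi cells it had 255.9 to 353.2 CPM in vehicle and 272.6 to 372.3 CPM in cycloheximide, which overlapped. The interaction was -0.71 ± 0.15 (edgeR adjusted p = 0.00048), and 0.0549 without replicate 1.

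LAMB1 rose with cycloheximide in MAPKi cells (0.30 ± 0.06, edgeR adjusted p = 1.47e-05), from 209.6 to 298.6 CPM in vehicle to 281.9 to 336.3 CPM, and the interaction was 0.29 ± 0.08 (edgeR adjusted p = 0.00787). LAMB2 had 35.1 to 47.1 CPM in vehicle and 29.6 to 39.2 CPM in cycloheximide with MAPKi, and its interaction was -0.51 ± 0.17 (edgeR adjusted p = 0.0349). ITGAV had 80.0 to 111.9 CPM and 63.4 to 86.5 CPM with MAPKi, against 61.5 to 77.3 CPM and 68.8 to 85.3 CPM with DMSO (interaction -0.43 ± 0.12, edgeR adjusted p = 0.00722). ITGB1 had 89.7 to 116.2 CPM in vehicle and 65.8 to 81.2 CPM in cycloheximide with MAPKi, and its interaction was -0.28 ± 0.10 (edgeR adjusted p = 0.0406). Without replicate 3 the interaction of LAMB1 (adjusted p = 0.165), LAMB2 (0.227), ITGAV (0.261) and ITGB1 (0.22) was no longer called. That was also so without replicate 1 for LAMB1 (0.063), LAMB2 (0.3) and ITGB1 (0.18), and for ITGB1 without replicate 2 (0.175), by DESeq2 (0.0779), with no filter (0.304) and with total counts (0.41). COL15A1 was the other gene called higher with cycloheximide in MAPKi cells (4.04 ± 1.01, edgeR adjusted p = 0.00105, and 0.0575 without replicate 2). COL15A1 (interaction 3.72 ± 1.21, edgeR adjusted p = 0.031) had 0 to 1 counts in the 6 MAPKi vehicle libraries and 0 to 8 in the 6 MAPKi cycloheximide libraries, and was not called without any 1 of the replicate numbers (adjusted p = 0.212, 0.189 and 0.13).

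Of the gene lists around the matrix, matrix partners had 2 genes higher and 2 lower of 14 with DMSO and 2 higher and 7 lower with MAPKi under cycloheximide. CCN1 and CCN2 were the genes that rose in both pretreatments. Collagen processing had 0 higher and 6 lower of 24 with DMSO and 1 higher and 10 lower with MAPKi, integrin adaptors 2 higher and 9 lower of 22 and 1 higher and 5 lower, and proteases and inhibitors 1 higher and 6 lower of 12 and 0 higher and 5 lower. Over all genes 18.3% were higher and 13.5% lower with DMSO, and 15.9% and 13.9% with MAPKi.

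Triptolide was used to follow what remained of each transcript once transcription stopped. Since triptolide takes RNA from the whole transcriptome, these libraries were scaled to 36 genes whose share rose after triptolide, and such levels are called stable-scaled CPM. COL9A3, COL16A1 and COL27A1 are 3 of these 36 genes, and without them the calls numbered 3 higher and 9 lower with DMSO and 1 higher and 6 lower with MAPKi. Against vehicle at 0 h, triptolide at 3 and 5 h left 3 of 51 genes higher and 10 lower with DMSO, when 1.30% of all genes were higher and 48.7% lower. With MAPKi it left 1 higher and 6 lower, when 1.28% of all genes were higher and 56.1% lower. The rises were COL21A1, COL9A3 and COL27A1 with DMSO and COL21A1 with MAPKi. COL21A1 passed the filter through triptolide groups, and the other risen genes were among those used for the scaling. The counts of rises therefore cannot be read against the shares of all genes. The median log2 change over the 51 genes was -0.23 with DMSO and -0.18 with MAPKi, and over all genes it was -0.47 and -0.59. These comparisons span harvest times, so the changes cannot be told apart from a change between batches.

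With TMM scaling, which sets the median of all genes to 0 with DMSO and 0.05 with MAPKi on the log2 scale, the counts became 12 higher and 1 lower with DMSO and 24 higher and 0 lower with MAPKi. The direction against the starting level therefore depends on the scaling. Against the median of all genes under the stable-gene scaling, 7 of 51 genes with DMSO and 9 of 51 with MAPKi lay below that median.

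LAMB1 fell in both pretreatments. In stable-scaled CPM it had 260.6, 259.0 and 250.5 at the start with DMSO, 210.6, 185.7 and 163.7 at 3 h and 180.0, 189.2 and 155.4 at 5 h of triptolide (log2 change -0.51 ± 0.08, edgeR adjusted p = 1.17e-07). With MAPKi it had 302.1, 323.5 and 296.7 at the start, 232.1, 225.8 and 228.0 at 3 h and 215.7, 233.2 and 231.9 at 5 h (-0.43 ± 0.08, edgeR adjusted p = 2.94e-06). Every triptolide library lay below every library of the start. With TMM scaling its change was -0.03 (edgeR adjusted p = 0.752) with DMSO and 0.21 (edgeR adjusted p = 0.00997) with MAPKi.

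ITGA5 kept 75.0% ± 4.58 (SD, n = 3) of its starting level at 5 h with DMSO (-0.36 ± 0.15, edgeR adjusted p = 0.0324, and 0.245, 0.0529 and 0.0544 without replicate 1, 2 or 3) and 65.7% ± 8.37 with MAPKi (-0.62 ± 0.15, edgeR adjusted p = 0.000162), and 0.02 was its change with MAPKi under TMM scaling. LAMA4 kept 70.3% ± 7.26 with DMSO (-0.46 ± 0.09, edgeR adjusted p = 1.02e-05, and 0.01 with TMM scaling). ITGAV fell in both pretreatments, by 0.34 ± 0.10 (edgeR adjusted p = 0.00284) and 0.37 ± 0.10 on the log2 scale (edgeR adjusted p = 0.00109). With DMSO its change was -0.17 without replicate 3 (adjusted p = 0.271). Over all genes the median share kept at 5 h was 65.1% ± 1.60 with DMSO and 59.2% ± 2.36 with MAPKi. That median was taken against the same-numbered library of the start, over all tested genes with a count there. The shares of single genes were taken against the mean of the start libraries, so both are not the same measure.

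COL4A5 had the largest fall. With MAPKi it had 7.88, 4.83 and 6.12 stable-scaled CPM at the start and 1.48 to 4.93 in the 6 triptolide libraries (-0.97 ± 0.34, edgeR adjusted p = 0.0124), the highest of which lay above the lowest library of the start. With DMSO it had 1.65, 2.83 and 0.76 at the start and 0.14 to 1.03 later (-1.87 ± 0.47, edgeR adjusted p = 0.000596). Without replicate 2 the call with DMSO was lost (adjusted p = 0.0929), as was that with MAPKi without replicate 1 or 3 (0.265 and 0.0555).

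Besides COL21A1, described below, COL9A3 and COL27A1 rose with DMSO. COL27A1 had 78.7, 74.5 and 60.8 stable-scaled CPM at the start and 84.9 to 106.1 after triptolide (0.38 ± 0.12, edgeR adjusted p = 0.0058, and 0.126 without replicate 3). COL9A3 had 116.2, 136.2 and 156.6 at the start and 173.0 to 194.0 after triptolide (0.40 ± 0.13, edgeR adjusted p = 0.00552, and 0.106 and 0.0569 without replicate 1 or 2). Both are among the genes used for the scaling, so that a rise was a condition of that choice. No gene of the 51 was called in the interaction of MAPKi with triptolide (0 higher and 0 lower, against 0.415% and 2.76% of all genes). At an unadjusted p under 0.05 edgeR gave 1 higher, LAMA4, and 2 lower, COL7A1 and COL9A3, and DESeq2 called 0.

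Over all genes 48.7% were lower with DMSO and 56.1% with MAPKi after triptolide. Collagen processing had 9 of 24 tested genes lower and 0 higher with DMSO after triptolide and 7 lower and 0 higher with MAPKi. Matrix partners had 8 lower of 14 with DMSO and 6 lower with MAPKi, with CCN1 and CCN2 the largest falls in both. Integrin adaptors had 1 higher and 7 lower of 22 with DMSO and 0 higher and 7 lower with MAPKi, and proteases and inhibitors 3 lower and 6 lower of 12.

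**Figure D4:**
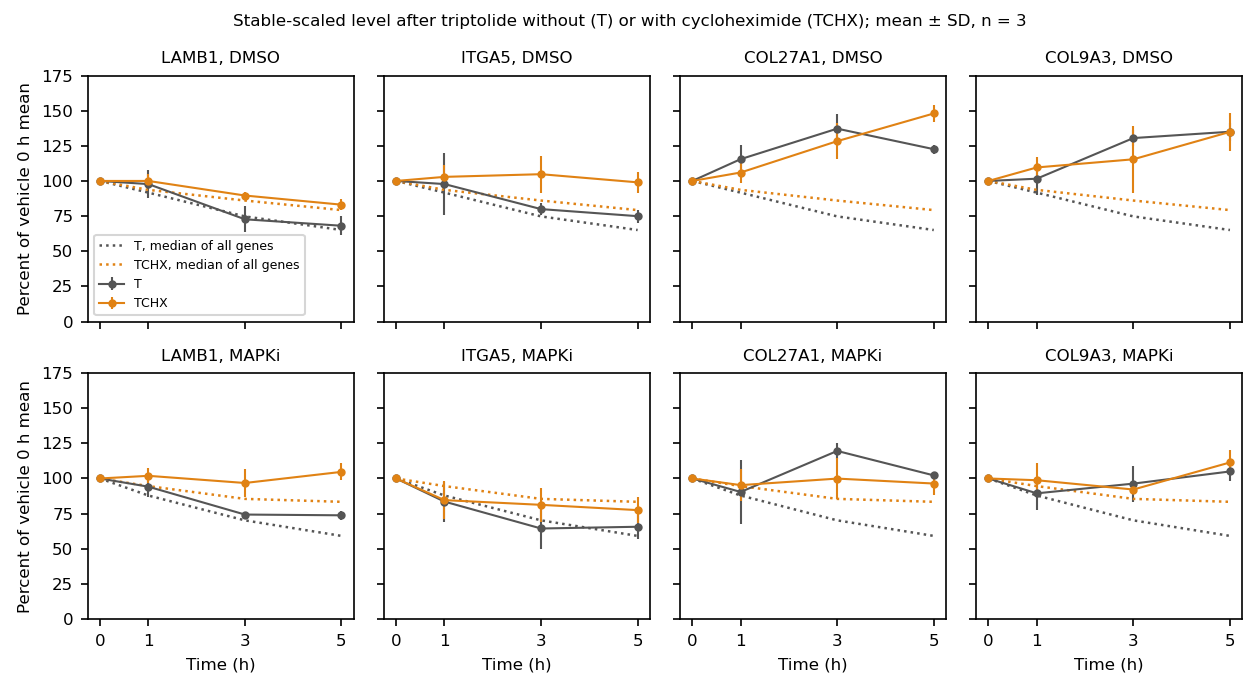
Stable-scaled level in percent of the mean of the 3 vehicle libraries at 0 h, against time in hours, after triptolide alone (T, grey) or with cycloheximide (TCHX, orange), as mean and SD of 3 libraries. Dotted lines give the median share over all genes, with each library taken against the same-numbered vehicle library at 0 h. LAMB1 stays higher with TCHX than with T at 3 and 5 h in both pretreatments, and COL27A1 and COL9A3 with DMSO lie above 100% at 3 and 5 h. Both COL27A1 and COL9A3 are among the genes used for the scaling, whose share had to rise after triptolide.

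Cycloheximide given with triptolide shows which transcripts keep a higher level when translation is blocked during decay. With DMSO, 4 of 51 genes were higher and 0 lower in TCHX than in T at 3 and 5 h, when 28.4% of all genes were higher and 0.468% lower. With MAPKi, 3 were higher and 1 lower, when 41.4% were higher and 0.535% lower. The median log2 difference over the 51 genes was 0.14 with DMSO and 0.01 with MAPKi, and over all genes 0.23 and 0.34. With TMM scaling, the counts were 0 higher and 5 lower with DMSO and 0 higher and 22 lower with MAPKi, so this direction too depends on the scaling.

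Of the genes higher in TCHX with MAPKi, LAMB1 had the largest difference. It had 263.9, 322.9 and 306.0 stable-scaled CPM at 3 h and 300.9, 327.3 and 337.2 at 5 h in TCHX, above all 6 libraries of T (0.44 ± 0.07, edgeR adjusted p = 2.72e-08), and 0.05 with TMM scaling (adjusted p = 0.51). With DMSO the difference was 0.30 ± 0.07 (edgeR adjusted p = 0.000232), and 0.0908 without replicate 3. ITGA5 had 48.5 to 62.6 stable-scaled CPM in TCHX and 37.3 to 44.8 in T with DMSO (0.39 ± 0.12, edgeR adjusted p = 0.00753, and 0.0814 without replicate 3). With MAPKi it had 35.0 to 47.9 in TCHX and 24.1 to 38.0 in T, which overlapped (0.30 ± 0.12, edgeR adjusted p = 0.0418, and 0.481 and 0.133 without replicate 1 or 2).

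ITGB5 was called in both pretreatments, at 0.18 ± 0.07 with DMSO (edgeR adjusted p = 0.0382, and 0.0597 and 0.528 without replicate 2 or 3) and 0.25 ± 0.07 with MAPKi (edgeR adjusted p = 0.00218, and 0.0817 without replicate 3). LAMB2 had 16.9 to 23.1 stable-scaled CPM in TCHX and 13.2 to 19.2 in T with DMSO (0.33 ± 0.12, edgeR adjusted p = 0.026, and 0.148 and 0.251 without replicate 1 or 3). The difference between pretreatments was called for 0 genes in the higher and 1 in the lower direction (6.82% and 0.294% of all genes). In MAPKi cells the lower gene in TCHX than in T was COL15A1 (-2.61 ± 0.95, edgeR adjusted p = 0.0208, and 0.585 without replicate 2). It was also the gene called in the interaction (-3.98 ± 1.196, edgeR adjusted p = 0.0256), with 0 to 12 counts a library in these arms, no call by DESeq2 and none without replicate 1 or 2 (edgeR adjusted p = 0.0971 and 0.694).

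Of the lists around the matrix, TCHX exceeded T with DMSO for 4 of 24 genes of collagen processing, 4 of 14 matrix partners, 4 of 22 integrin adaptors and 0 of 12 proteases and inhibitors, with 0 lower in any list, against 28.4% of all genes higher. With MAPKi it did for 3, 2, 2 and 3 genes of these lists, against 41.4% of all genes, with 1 protease, MMP8, lower.

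COL21A1, a FACIT collagen of vessel walls on chromosome 6 (GRCh38, chr6:56056590-56394094, minus strand), was seen only under triptolide. It had 0 counts in all 24 vehicle libraries and at most 3 counts in any of the CHX libraries and of the T and TCHX libraries at 0 and 1 h. At 3 and 5 h of T or TCHX it had 12 to 132 counts in each of the 24 libraries, in both pretreatments. With DMSO it had 24, 69 and 69 counts at 3 h and 33, 34 and 32 counts at 5 h of T, and 17, 69 and 56 counts and 40, 29 and 23 counts in TCHX. With MAPKi it had 82, 65 and 32 counts at 3 h and 39, 93 and 47 counts at 5 h of T, and 62, 12 and 17 counts and 50, 132 and 58 counts in TCHX.

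Against a floor of 3 counts per library at the start, its stable-scaled level in T at 3 and 5 h was at least 8.96-fold higher with DMSO and at least 12.98-fold higher with MAPKi. It passed the filter on low counts through the groups in which it was high, so no test value is given for it. It is still counted among the genes called higher after triptolide in both pretreatments. TCHX and T overlapped at each time in both pretreatments. DHFRP6 and another annotated gene lie within COL21A1 on the same strand without sharing an exon with it.

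**Figure D5:**
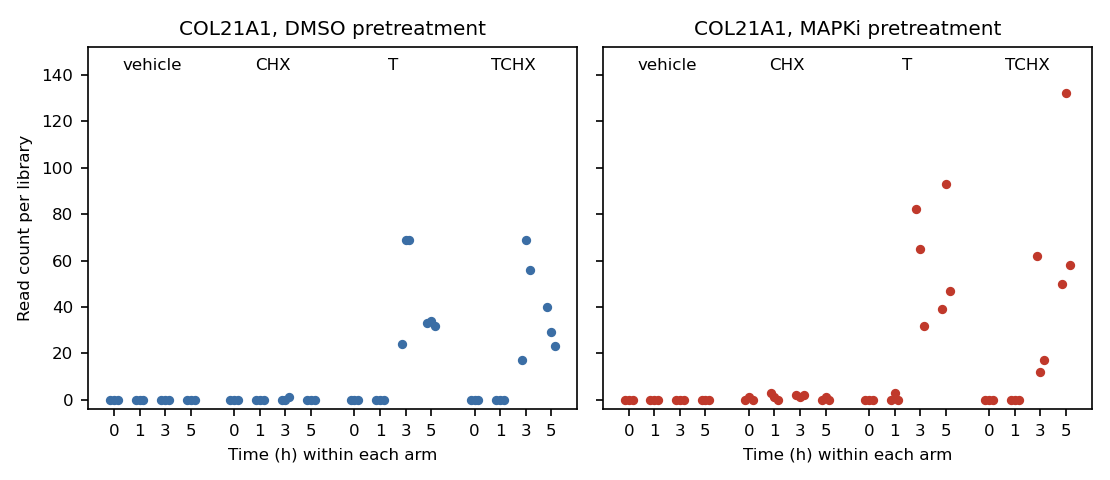
Read count of COL21A1 in each of the 96 libraries, by time in hours within the vehicle, CHX, T and TCHX arms, for DMSO (left) and MAPKi (right). The vehicle libraries are all at 0, and the T and TCHX libraries at 3 and 5 h lie between 12 and 132 counts.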

How the data were processed

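The authors trimmed reads with fastp 0.20.1, mapped them to GRCh38.p13 with HISAT2 2.2.1 and counted them on exons with HTSeq 0.13.5 (per the labels and the study's methods). The deposited values are raw counts per gene and library. Use of strand is not given in the sources used here, and no molecular identifiers are described, so floors and intervals cover counting error only. Of 83 genes, 38 have exons that overlap another gene's. Counts were fitted with edgeR 4.0.16 in R 4.3.3 (filterByExpr, 14948 genes, 1 mean for each of 32 groups over all 96 libraries, quasi-likelihood tests, two-sided, with calls made below an adjusted p of 0.05). TMM set the library sizes, or, for contrasts with triptolide, by DESeq2 1.42.0 median-of-ratios factors over 36 stable genes. The fit was tested on simulated counts with the same spread setting for every gene. For MAPKi against DMSO at 0 h it recovered 36 of 100 genes changed by 1 on the log2 scale. Of 100 genes changed by 2 it recovered 88, and 3 unchanged genes were called. Over the 4 vehicle times the fit recovered 90 and 97. The simulation changed far fewer genes than were called at 0 h in the data, so these recoveries need not carry over to the data. A gene not called at 0 h may still have changed. Genes named with values in each library were the 6 largest rises and falls called at 0 h at 5 CPM or more, the 3 largest each way in other contrasts, and all called in an interaction, and COL13A1, COL24A1, COL1A1 and further called genes were added after their values were seen. The members and lists were chosen with earlier results of these data known.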

Additional observations from a re-analysis of the deposited data

Results flagged for a closer look

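Differences between MAPKi and DMSO in the response to cycloheximide were called by the interaction term for 6 genes without triptolide and for 1 gene under triptolide. On the log2 scale the interaction without triptolide was -0.71 for COL9A3, -0.51 for LAMB2, -0.43 for ITGAV, -0.28 for ITGB1, 0.29 for LAMB1 and 3.72 for COL15A1. LAMB1 changed with cycloheximide by 0.30 in MAPKi cells and by 0.01 in DMSO cells, and COL9A3 by 0.61 in DMSO cells and by -0.10 in MAPKi cells. The 2 higher and 4 lower of 51 genes stand beside 4.64% higher and 6.59% lower over all genes, and each of the 6 calls was lost when at least 1 of the replicate numbers was left out. Under triptolide the interaction was -3.98 for COL15A1, the opposite sign to its value without triptolide, on 0 to 12 counts a library.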

How the results depend on the processing

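The number of genes called in MAPKi against DMSO at 0 h lay between 26 and 31 in every alternative (30 as reported), and that over the 4 vehicle times between 35 and 45 (40 as reported). Other counts moved more, and the cause was not tested. With cycloheximide and MAPKi, 12 genes were called with total counts as library size and 11 to 12 when replicate numbers were left out in turn, against 21. With cycloheximide and DMSO, leaving out replicates gave 7 to 13 calls, and from 0 to 5 h of vehicle it gave 0 with DMSO and 0 to 1 with MAPKi. The cycloheximide interaction had 2 calls with no filter on low counts and 1 to 5 without a replicate. For triptolide with DMSO, total counts gave 8 calls and leaving out replicates 7 to 12. With TMM scaling, triptolide with MAPKi gave 24 calls and the triptolide interaction 1. For TCHX against T, total counts gave 1 call with DMSO and 11 with MAPKi, TMM gave 22 with MAPKi, and leaving out replicates gave 0 to 4 with DMSO. The interaction under triptolide had 0 calls by DESeq2 and with no filter, 2 with TMM and 0 to 1 without a replicate. TMM reversed the sign of LAMA4 after triptolide with DMSO (0.014), of ITGA5 (0.021) and LAMB1 (0.213) after triptolide with MAPKi, and of ITGA5 (-0.089) and ITGB5 (-0.138) in TCHX against T with MAPKi. Total counts gave 6 higher and 2 lower after triptolide with DMSO and 7 higher and 0 lower with MAPKi. Scaling without the 3 stable genes described here was added after seeing the data and gave 12 and 7 calls after triptolide. Of the named genes under all alternatives, 338 values kept their direction and side of the threshold, 76 kept the direction only and 5 turned. The labels do not say what a replicate number shares across groups. Same-numbered libraries deviated together with a correlation above 0.1 in 1 of 3 pairs between the groups at 0 h and in 54 of 84 pairs between vehicle groups (median 0.18), so not in every pair, and the replicate number was left out of the reported fits. A replicate block gave 31 calls at 0 h, 40 over the vehicle times, 15 and 21 with cycloheximide, 16 and 9 after triptolide and 8 in the cycloheximide interaction, each within 1.5 times the reported count. Genes of few counts, such as COL15A1 and COL18A1, are limited by depth.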

Other observations

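The choice of the limit below was made after the values had been seen. Of all genes in the table, COL21A1 was the 1 gene with 0 counts in all 24 vehicle libraries and at least 10 counts in all 24 T and TCHX libraries at 3 and 5 h.

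Chains known to assemble together gave these values with MAPKi at 0 h. COL4A1 and COL4A2 both fell, COL9A2 and COL9A3 both rose, and COL5A2 and COL5A3 both rose, while COL9A1 and COL5A1 had too few counts to be tested. LAMA4 fell while LAMB1 rose and LAMC1 was not called. ITGB3, ITGB5 and ITGB8, which all pair with ITGAV, fell while ITGAV was not called. ITGB1, the beta chain shared by most integrins, was not called either. Over the 4 vehicle times ITGAV was called higher. There LAMC1 was called lower and LAMB1 higher, and both calls were lost without replicate 1 or 2. The edgeR adjusted p was then 0.133 and 0.166 for LAMC1 and 0.0538 and 0.0669 for LAMB1.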
